A study of Mus musculus with 10 samples.

Results

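The 35 genes described here are type I interferon stimulated genes, chosen by symbol as a list of known interferon targets, and all 35 were found by their gene name among the 54987 genes of the expression table. They were measured by RNA sequencing of the popliteal lymph node, the node behind the knee that drains the foot, in male BALB/c mice. The 10 libraries, all of day 15, fall into 3 groups. Acu (3 libraries, numbered 4, 6 and 28) received complete Freund's adjuvant, killed mycobacteria in oil that cause arthritis, under the skin of the right hind paw, together with acupuncture, which the series title places at the point ST36. AIA (4 libraries, 5, 10, 31 and 38) received the same 0.1 ml of adjuvant without acupuncture (the protocols call this group AA), and Control (3 libraries, 15, 16 and 17) received 0.1 ml of saline. The labels' protocols also name a group with sham acupuncture, which was not analysed here, so needling and the handling that goes with it cannot be told apart. Nothing in the labels ties each library to a mouse of its own, so p-values here measure only the spread among libraries, which may be technical.

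Type I interferons are a family of secreted cytokines, the interferon alphas and interferon beta among them, that signal through the receptor chains Ifnar1 and Ifnar2. The receptor's kinases activate transcription factors, Stat2 among them, and the complex that these form with Irf9 binds a DNA element, the interferon stimulated response element or ISRE, before the genes described here. In a lymph node, plasmacytoid dendritic cells and macrophages are known sources of type I interferon, and nearly every cell can respond. Interferon gamma acts through another receptor and on a different element, the gamma activated sequence or GAS, and many interferon stimulated genes answer to both.

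The promoters were read first, because the response elements are what these genes are known to share. RefSeq promoter windows on GRCm38.p6, from 250 bases before to 50 bases after an annotated start, were available for 27 of the 35 genes. Zbp1, Mx1, Mx2, Rtp4, Parp9, Dhx58, Usp18 and Oas2 were not in that table. The ISRE core was searched as GAAA, 2 bases of any kind, then GAAA, on both strands, and it stood in the windows of 13 of the 27 genes (48.15%), against 1079 of all 27025 genes in the table (3.99%). The GAS core TTCNNNGAA, which reads the same on both strands, stood in 7 of the 27 (25.9%), against 2582 of 27025 (9.55%), and 4 genes held both. Cores of the 2 kinds overlapped in 2 of the 32 windows of these genes, those of Bst2 and Ifitm3. A match is a description of the letters and not a bound site. Genes with more than 1 annotated start have more than 1 window.

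The windows of Isg15, Ifit1 and Isg20 are printed because Isg15 held the densest run of ISRE cores, Ifit1 carries 2 separate ones, and Isg20, the gene with the smallest adjusted p between AIA and Control below, held a GAS core and no ISRE core. Each reads from 5′ to 3′ on the gene's own strand, and capitals mark ISRE cores in the first 2 and the GAS core in the third. On this strand the cores of Ifit1 read TTTC, 2 bases, TTTC.
Isg15, chr4:156200769-156201068, minus strand: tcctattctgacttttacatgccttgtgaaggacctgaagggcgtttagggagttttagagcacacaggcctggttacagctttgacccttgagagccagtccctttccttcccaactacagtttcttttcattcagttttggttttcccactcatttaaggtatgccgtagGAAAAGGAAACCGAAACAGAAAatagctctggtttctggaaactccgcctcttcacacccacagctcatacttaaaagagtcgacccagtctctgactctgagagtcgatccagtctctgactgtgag
Ifit1, chr19:34640639-34640938, plus strand: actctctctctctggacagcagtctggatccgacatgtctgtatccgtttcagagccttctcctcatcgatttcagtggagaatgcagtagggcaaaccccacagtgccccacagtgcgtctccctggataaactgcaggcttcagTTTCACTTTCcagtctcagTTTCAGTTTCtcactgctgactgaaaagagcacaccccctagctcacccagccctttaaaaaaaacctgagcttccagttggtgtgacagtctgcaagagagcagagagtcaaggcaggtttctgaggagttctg
Isg20, chr7:78913174-78913473, plus strand: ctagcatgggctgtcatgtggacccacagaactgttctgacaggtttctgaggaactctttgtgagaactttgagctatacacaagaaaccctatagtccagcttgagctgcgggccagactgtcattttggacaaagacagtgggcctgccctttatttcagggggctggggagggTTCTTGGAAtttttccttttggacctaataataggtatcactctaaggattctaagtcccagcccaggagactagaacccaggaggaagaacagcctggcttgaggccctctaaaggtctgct
In Isg15 the 3 cores overlap and cover bases -78 to -57 from the start, in the repeat of GAAA units that is typical of the element. The 2 cores of Ifit1 lie at -104 to -95 and at -85 to -76. The GAS core of Isg20 lies at -73 to -65 from the start of the window printed. Isg20 has further annotated starts, and their windows hold neither core.

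Stretches of 30 bases around an ISRE core are shown for 6 more genes of the text, each read on the strand on which the core reads GAAA, 2 bases, GAAA, with the core in capitals, to let the bases between and after the repeats be compared.
Oas1a, chr5:120907520-120907549: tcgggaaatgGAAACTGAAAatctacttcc
Oas3, chr5:120777715-120777744: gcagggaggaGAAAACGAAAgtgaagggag
Ifit3, chr19:34583397-34583426: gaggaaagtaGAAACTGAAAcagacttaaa
Ifitm3, chr7:141010706-141010735: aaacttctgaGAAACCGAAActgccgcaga
Bst2, chr8:71537577-71537606: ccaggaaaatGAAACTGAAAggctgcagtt
Stat2, chr10:128270266-128270295: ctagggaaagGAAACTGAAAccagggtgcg
The cores shown of Oas1a, Ifit3, Bst2 and Stat2 hold CT between the GAAA units, that of Ifitm3 holds CC and that of Oas3 holds AC. Oas1a, Ifit3, Bst2 and Ifitm3 each have another core, not shown, which holds TG, GT, AT and AG in that order. Most of the cores shown lie before the start (-14 to -5 in Oas1a, -75 to -66 in Oas3, -122 to -113 in Ifit3, -124 to -115 in Bst2 and -222 to -213 in Stat2), while that of Ifitm3 lies just after it, at bases 20 to 29. Of the 8 genes called between AIA and Control below, 6 were in the promoter table and 3 of these held an ISRE core (Isg15, Oas1a and Oas3). Of the other 27 genes, 21 were in the table and 10 held one.

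**Figure D1:**
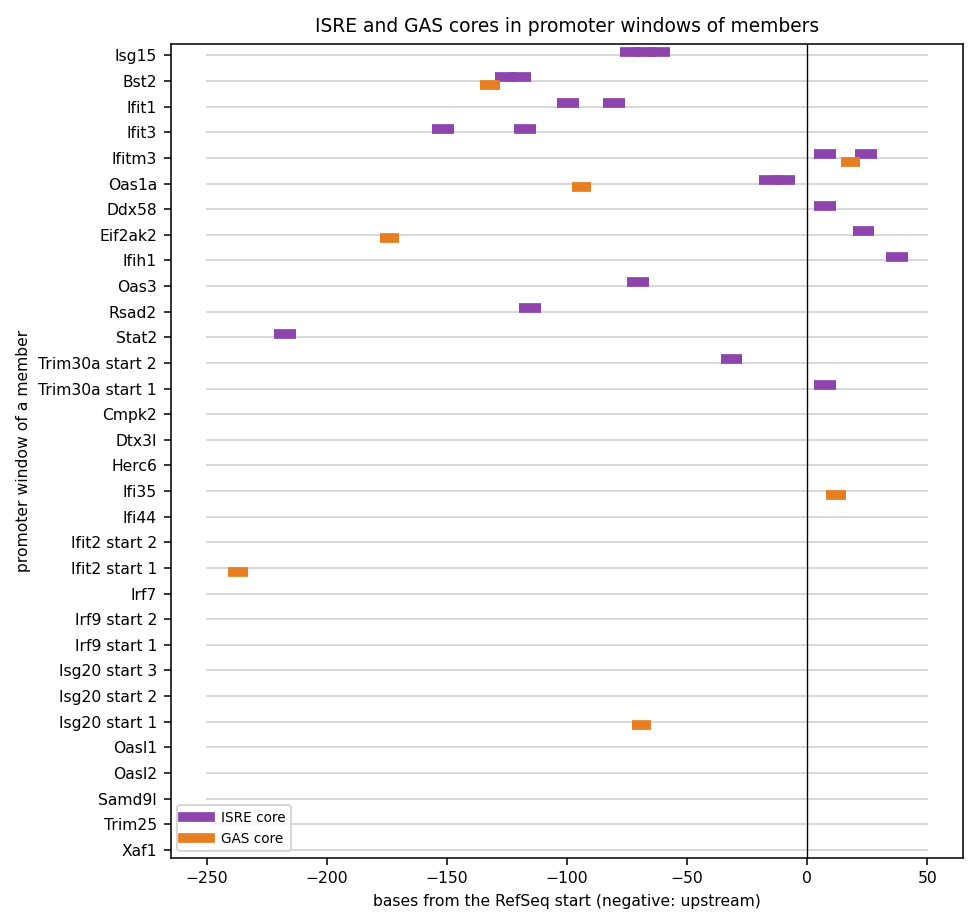
Positions of ISRE cores (purple) and GAS cores (orange) in the 32 RefSeq promoter windows of the 27 genes in the table, with distance from the annotated start in bases on the x axis and 1 grey line for each window. The ISRE cores of 13 genes lie between base -222 (Stat2) and base 42 (Ifih1), and the 3 cores of Isg15 run together between -78 and -57.

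The state of several libraries touches every comparison. The libraries labelled Control 17 and Acu 4 held 10739 and 3901 FPKM of Prl8a2, a prolactin of the decidua, against at most 1.36 FPKM in the other 8, and 87.2 and 60.1 FPKM of Xist, which is expressed in females, against at most 0.128 FPKM, although the labels give male mice. Lymphocyte markers were near 0 in 3 libraries, Acu 4, Control 15 and Control 17: their mean log2(FPKM + 1) over 6 T cell genes was 0.43 to 0.61, against 4.26 to 4.80 in the other 7, and over 6 B cell genes 0.30 to 0.67, against 6.13 to 6.66. On that scale the adipocyte genes were at 1.92 to 4.04 in the 4 AIA libraries, against 10.2 in Control 15, 8.16 in Control 16 and 1.31 in Control 17. AIA 10 had 15116 genes above 0, against 21224 to 24411 in the others, and 231 FPKM of the mitochondrial gene mt-Co1, against 4511 to 41653. Reads recovered from the table numbered 13269763 to 18926894 per library, and the lowest count of any of the 35 genes in any library was 24. Results are therefore given for all 10 libraries as labelled and for the 8 without Control 17 and Acu 4, in which Control is Control 15 and Control 16, and the effect of Control 15 is given beside them.

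All 35 genes were detected in every library, and all passed the filter for testing (0.5 FPKM or more in 3 or more libraries). FPKM counts fragments per kilobase of gene at a common library size, and since it is per length, levels of different genes can be set side by side. Summed over the 35 genes, the level was 1087, 909 and 1455 FPKM in Acu 4, 6 and 28, 1108, 2396, 1128 and 2539 FPKM in AIA 5, 10, 31 and 38, and 470.2, 520.1 and 912 FPKM in Control 15, 16 and 17. Every AIA library was above every Control library in this sum, and the Acu libraries overlapped both AIA and, through Acu 6 and Control 17, the Control range. Ifitm3, Bst2 and Isg15 made up 46.8% to 74.2% of it, with the highest share in AIA 10. Weighting the genes equally, the mean log2(FPKM + 1) was 3.78, 3.89 and 4.48 in Acu 4, 6 and 28, 3.89, 4.27, 4.02 and 5.18 in AIA 5, 10, 31 and 38, and 2.72, 2.95 and 3.75 in Control 15, 16 and 17. On this measure Control 15 and 16 lay below the other 8 libraries, and AIA 38 stood above all others.

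**Figure D2:**
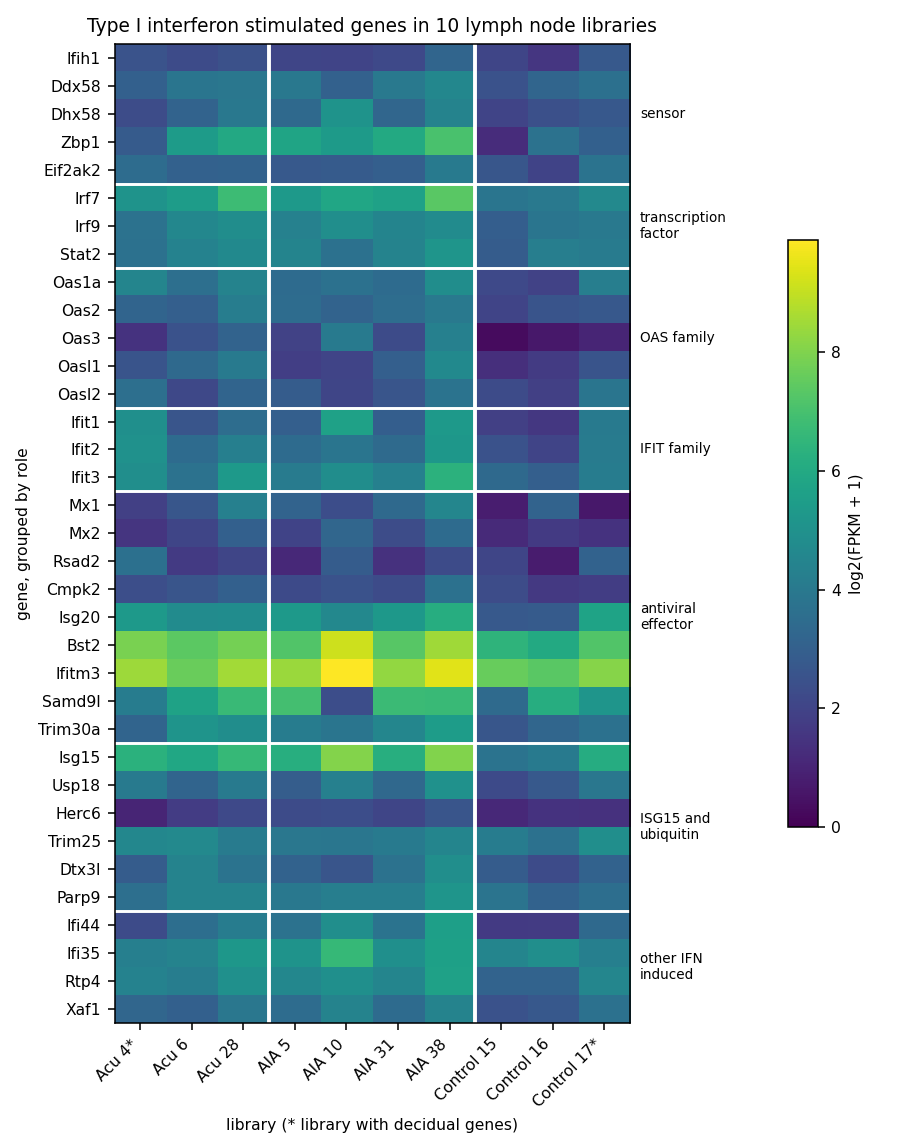
Level of each of the 35 genes as log2(FPKM + 1), by colour, in the 10 libraries (columns, Acu, AIA and Control from left to right, an asterisk marking the libraries with decidual genes), with genes in rows grouped by role. AIA 38 is the highest library for 23 of the 35 genes, and Control 15 or Control 16 is the lowest for 31.

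Within AIA the genes did not have 1 common level. AIA 38 was the highest of the 4 libraries for 26 of the 35 genes, AIA 10 for 8 and AIA 5 for Samd9l, while the lowest was AIA 5 for 14 genes, AIA 10 for 12 and AIA 31 for 9. The ratio of the highest to the lowest AIA library had a median of 3.33 and ran from 1.45 (Irf9) to 29.8 (Samd9l), and it was above 2 for 31 genes. AIA 38 was above the mean of AIA 5 and AIA 31 for 34 genes, by a median of 2.33-fold. Acu 28 was above Acu 6 for 31 of 35, by a median of 1.70-fold. The library labelled Control 17 was above the mean of Control 15 and 16 for 31 of 35, by a median of 1.99-fold and by 8.69-fold for Isg20.

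The first comparison asks what the adjuvant did. With all 10 libraries as labelled, 0 of the 35 genes were called between AIA and Control by limma at an adjusted p under 0.05 over 17010 genes, where 2 genes in all, 0.0118%, were called higher and 2 lower. At an unadjusted p under 0.05, 20 of the 35 were higher and 0 lower, where 11.6% of all genes tested were higher. Limma's voom on the recovered reads called 0 of the 35. At the unadjusted p it had 19 of them higher, where 1831 of all 17010 genes were higher. The fold change was positive for 33 of 35, with a median log2 of 1.08 against -0.07 for all genes, and the smallest adjusted p was 0.0723 (Zbp1). In 15 of 35 genes every AIA library was above every Control library, where 11.4% of all genes were.

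Without Control 17 and Acu 4, 8 of the 35 genes rose in AIA and 0 fell: Zbp1, Isg15, Ifi44, Oas3, Isg20, Oas1a, Rtp4 and Herc6. Of the 16067 genes tested in this fit 688, or 4.28%, rose and 1478 fell. The fold change was positive for all 35, with a median log2 of 1.36 against -0.01 for all genes, and 23 were higher at an unadjusted p under 0.05, where 12.7% of all genes tested were. Every AIA library was above both Control libraries in 25 of the 35, where 18% of all genes were. None of the calls was kept without Control 15, 1 of the 3 libraries with hardly any lymphocyte transcripts. Control is then Control 16 alone, and its spread is assumed to be like that of the other groups. The log2 fold changes of Isg20, Isg15, Ifi44, Rtp4 and Oas1a hardly moved (2.46, 3.05, 2.74, 1.75 and 1.87, against 2.52, 3.21, 2.78, 1.77 and 1.79 with Control 15). Those of Zbp1, Oas3 and Herc6 fell to 2.30, 2.48 and 0.84, from 3.57, 2.67 and 1.02. The median then was 1.17, and 12 of 35 were higher at the unadjusted p, where 5.51% of all genes were. Of the 8, Zbp1 and Isg20 were called in 12 of 13 alternative settings of this fit, Ifi44 and Isg15 in 11, Rtp4 in 9, Oas3 in 5, and Oas1a and Herc6 in 2 each. Another 6 genes, not called here, passed in 1 or 2 of the 13: Irf9 in 2, and Irf7, Ddx58, Dhx58, Oas2 and Trim30a in 1 each. In bulk tissue, fewer cells of a type and less RNA per cell cannot be told apart.

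**Figure D3:**
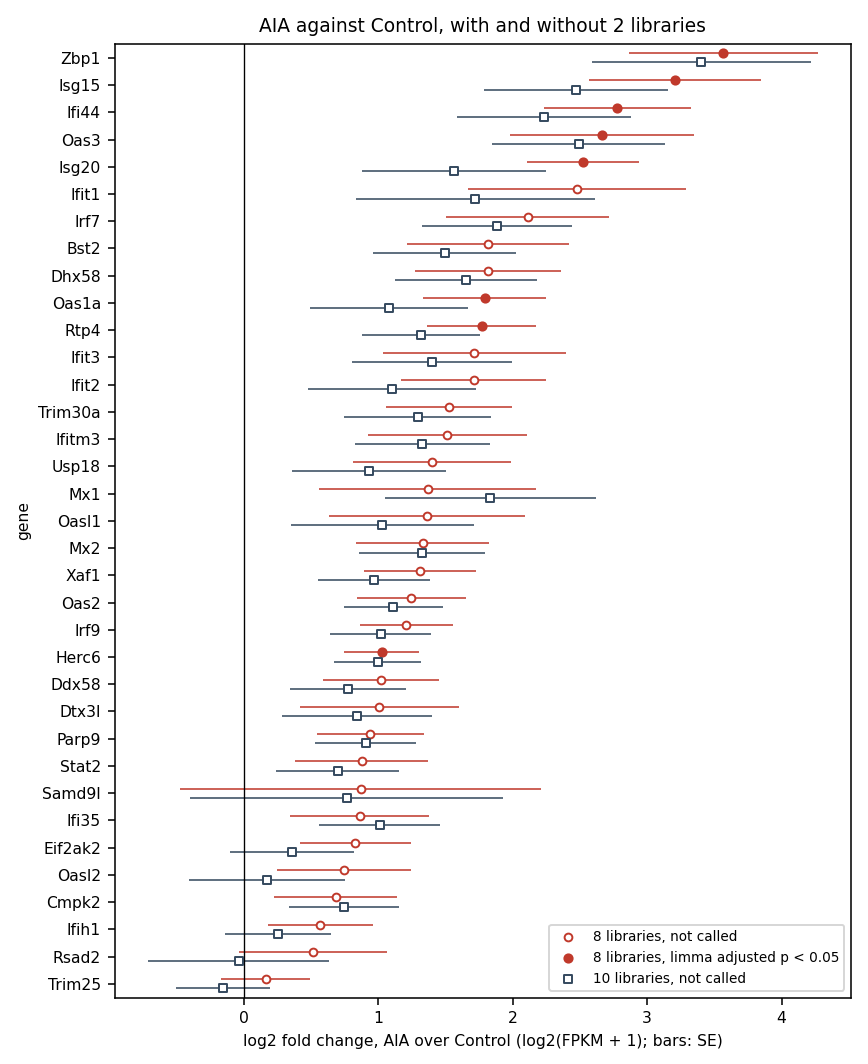
Log2 fold change of each of the 35 genes, AIA over Control, on the log2(FPKM + 1) scale, with SE bars, from the fit of 8 libraries (circles, filled where called) and of 10 libraries (squares, none called). In the fit of 8 libraries the values run from 0.16 (Trim25) to 3.57 (Zbp1) and 8 genes are called, and with all 10 libraries Rsad2 and Trim25 lie below 0.

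In the paragraphs on single genes, fold changes are log2 values of FPKM + 1, AIA over Control, from the fit of 8 libraries unless another is named. Among the sensors of foreign nucleic acid, Zbp1, which recognises Z-form nucleic acid and can trigger cell death, changed most. Zbp1 stood at 6.25, 42.6 and 61.7 FPKM in Acu 4, 6 and 28, 53.9, 40.9, 63.7 and 132 FPKM in AIA 5, 10, 31 and 38, and 1.36, 12.1 and 7.09 FPKM in Control 15, 16 and 17. All 4 AIA libraries and the Acu libraries 6 and 28 were above the highest Control library, Control 16, while Acu 4 lay within the Control range. In the fit of 8 libraries Zbp1 rose in AIA by a log2 fold change of 3.57 (SE 0.70, adjusted p = 0.0156), and the value was 2.30 (adjusted p = 0.119) without Control 15. Ddx58, the RNA sensor RIG-I, was more even. The level of Ddx58 was 7.19, 13.4 and 14.1 FPKM in Acu 4, 6 and 28, 14.7, 7.36, 15.04 and 22.9 FPKM in AIA 5, 10, 31 and 38, and 4.69, 8.42 and 11.5 FPKM in Control 15, 16 and 17. The lowest AIA library, AIA 10, was below Control 16 and 17, so the groups overlapped, and the log2 fold change of 1.02 (SE 0.43, adjusted p = 0.155) was not called. Dhx58 (LGP2), which modulates the RNA sensors, had a log2 fold change of 1.82 (SE 0.54, adjusted p = 0.0615), with 3.90 to 14.4 FPKM in Acu, 8.53 to 32.5 FPKM in AIA and 3.03 to 5.61 FPKM in Control. Ifih1 (MDA5) and Eif2ak2 (PKR, a kinase that stops translation on double-stranded RNA) had values of 0.57 and 0.83, with adjusted p of 0.371 and 0.215. Of the 5 sensors 1 was called.

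The transcription factors of the response were Irf7, which drives interferon alpha genes, and Irf9 and Stat2, which bind the ISRE in 1 complex. Irf7 had 33.1, 43.4 and 109 FPKM in Acu 4, 6 and 28, 38.98, 56.6, 50.1 and 163 FPKM in AIA 5, 10, 31 and 38, and 13.4, 15.2 and 24.03 FPKM in Control 15, 16 and 17. Irf9 stood at 12.1, 23.1 and 27.8 FPKM in Acu 4, 6 and 28, 19.5, 28.3, 21.3 and 26.1 FPKM in AIA 5, 10, 31 and 38, and 6.66, 13.5 and 15.02 FPKM in Control 15, 16 and 17. For both genes every AIA library was above every Control library. The log2 fold changes in the fit of 8 libraries were 2.11 for Irf7 (SE 0.61, adjusted p = 0.0541) and 1.21 for Irf9 (SE 0.35, adjusted p = 0.0539), just outside the threshold. Irf9 overlaps Rnf31, which reached 13.02 FPKM, on the same strand, and the part of shared reads in its counts was not tested. Stat2 had a value of 0.88 (adjusted p = 0.273), and Control 16 at 17.6 FPKM was above AIA 10 at 11.8 FPKM. None of the 3 was called by limma on FPKM in this fit. Irf7 passed with voom on the recovered reads (2.18, adjusted p = 0.0437), and Irf9 passed without AIA 10 (1.20, adjusted p = 0.0428) and without Control 16 (1.66, adjusted p = 0.0175).

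The oligoadenylate synthetases make the short oligoadenylates that switch on RNase L, and Oasl1 and Oasl2 are relatives of them. The level of Oas1a was 21.6, 11.2 and 20.6 FPKM in Acu 4, 6 and 28, 10.1, 11.9, 10.004 and 28.2 FPKM in AIA 5, 10, 31 and 38, and 3.49, 2.92 and 17.9 FPKM in Control 15, 16 and 17. Control 15 and 16 lay below all AIA libraries, but Control 17 lay above 3 of them. Oas3 had 1.697, 4.63 and 7.88 FPKM in Acu 4, 6 and 28, 2.84, 15.4, 3.74 and 18.7 FPKM in AIA 5, 10, 31 and 38, and 0.207, 0.5401 and 1.05 FPKM in Control 15, 16 and 17. For Oas3 no AIA library reached down to the Control range, and AIA 10 and 38 were far above AIA 5 and 31. Oas2 stood at 8.16, 6.95 and 17.1 FPKM in Acu 4, 6 and 28, 10.4, 7.79, 10.7 and 14.9 FPKM in AIA 5, 10, 31 and 38, and 3.06, 4.91 and 5.63 FPKM in Control 15, 16 and 17. The groups of Oas2 did not overlap between AIA and Control. In the fit of 8 libraries Oas3 rose in AIA by 2.67 (SE 0.69, adjusted p = 0.0386) and Oas1a by 1.79 (SE 0.46, adjusted p = 0.0378), and both adjusted p values rose above the threshold without Control 15, to 0.265 and 0.194. Oas2 had a log2 fold change of 1.24 (adjusted p = 0.0794), Oasl1 of 1.36 and Oasl2 of 0.75, so that 2 of 5 were called. Oasl1 spanned 2.61 to 24.9 FPKM within AIA, and it overlaps the antisense gene Gm13822, which reached 23.7 FPKM, so its counts are uncertain. Reads of Oas1a may be shared with its close relative Oas1g.

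The IFIT proteins bind viral RNA and hold back its translation. The level of Ifit3 was 28.3, 12.1 and 39.5 FPKM in Acu 4, 6 and 28, 16.4, 27.9, 18.6 and 80.1 FPKM in AIA 5, 10, 31 and 38, and 9.34, 6.898 and 16.9 FPKM in Control 15, 16 and 17. Ifit1 had 29.7, 5.11 and 10.6 FPKM in Acu 4, 6 and 28, 6.98, 49.5, 6.87 and 38.4 FPKM in AIA 5, 10, 31 and 38, and 2.68, 2.05 and 15.6 FPKM in Control 15, 16 and 17. AIA 38 was the highest of the 10 libraries for Ifit3 and AIA 10 for Ifit1, and Control 17 lay above AIA 5 in both genes and above AIA 31 in Ifit1. Log2 fold changes in the fit of 8 libraries were 2.48 for Ifit1 (SE 0.81, adjusted p = 0.0800), 1.72 for Ifit3 (SE 0.68, adjusted p = 0.131) and 1.71 for Ifit2 (SE 0.54, adjusted p = 0.0710). None of the 3 was called, although every AIA library was above Control 15 and 16 in each. The 3 genes are neighbours on chromosome 19, with 7111 bases between Ifit2 and Ifit3 and 52139 between Ifit3 and Ifit1.

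Of the 9 antiviral effectors, 1 was called. Isg20, an exonuclease that degrades viral RNA, had the smallest adjusted p of the 35. Isg20 stood at 38.9, 25.99 and 27.3 FPKM in Acu 4, 6 and 28, 38.8, 23.4, 38.2 and 70.7 FPKM in AIA 5, 10, 31 and 38, and 5.82, 6.19 and 52.2 FPKM in Control 15, 16 and 17. Control 15 and 16 lay far below the AIA libraries, and Control 17, at 52.2 FPKM, was above 3 of the 4. It rose in AIA by 2.52 without Control 17 and Acu 4 (SE 0.42, adjusted p = 0.00847), against 1.56 (adjusted p = 0.194) with all 10 libraries, and by 2.46 without Control 15 as well, where the adjusted p was 0.0703. Control 16 alone therefore gave nearly the same difference as Control 15 and 16 together.

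Ifitm3, a membrane protein that blocks virus entry, and Bst2 (tetherin), which holds budding virus at the cell surface and is also a surface marker of plasmacytoid dendritic cells in mice, were the most abundant of the 35. The level of Ifitm3 was 351, 198 and 371 FPKM in Acu 4, 6 and 28, 341, 950.2, 315 and 691 FPKM in AIA 5, 10, 31 and 38, and 193, 165 and 269.9 FPKM in Control 15, 16 and 17. Bst2 had 238, 169 and 225 FPKM in Acu 4, 6 and 28, 148, 561, 161 and 359 FPKM in AIA 5, 10, 31 and 38, and 84.4, 64.1 and 147 FPKM in Control 15, 16 and 17. In both, all AIA libraries were above all Control libraries, although AIA 5 and Control 17 were nearly equal for Bst2, and AIA 10 was the highest library. Their log2 fold changes in the fit of 8 libraries were 1.51 for Ifitm3 (SE 0.59, adjusted p = 0.129) and 1.82 for Bst2 (SE 0.60, adjusted p = 0.0823). Trim30a, a mouse member of the tripartite motif family, had a value of 1.52 (SE 0.47, adjusted p = 0.0659), and its close family members may share reads with it.

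The remaining effectors had log2 fold changes from 0.51 to 1.37 in the fit of 8 libraries. These were Mx1 and Mx2, dynamin-like GTPases of which Mx1 is nonfunctional in BALB/c mice, Rsad2 (viperin), which makes a chain-terminating nucleotide, Cmpk2, a mitochondrial nucleotide kinase, and Samd9l, a restriction factor. Rsad2 and Cmpk2 are divergent neighbours on chromosome 12, 12751 bases apart, with values of 0.51 and 0.68. Mx1 had 7.85 FPKM in Control 16 against 0.751 and 0.536 FPKM in Control 15 and 17, so that the Control library with lymphocyte transcripts lay within the AIA range of 4.02 to 22.5 FPKM and the other 2 below it. Samd9l had 120.3, 107 and 104 FPKM in AIA 5, 31 and 38 but 4.03 FPKM in AIA 10, and its SE of 1.34 on the log2 scale was the largest of the 35.

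Isg15, a ubiquitin-like protein that is attached to other proteins, had the largest log2 fold change after Zbp1 in the fit of 8 libraries. Isg15 stood at 78.8, 59.2 and 97.3 FPKM in Acu 4, 6 and 28, 71.7, 266, 73.2 and 256 FPKM in AIA 5, 10, 31 and 38, and 12.7, 15.2 and 69.2 FPKM in Control 15, 16 and 17. The AIA libraries lay above all Control libraries, with Control 17 only just below AIA 5 and 31. It rose in AIA by 3.21 (SE 0.64, adjusted p = 0.0163) in the fit of 8 libraries and had a value of 2.47 (adjusted p = 0.0922) in the fit of 10. Without Control 15 the value was 3.05, of nearly the same size, with an adjusted p of 0.135.

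Herc6, the main ligase that attaches Isg15 in mice, was low in every library. The level of Herc6 was 1.03, 2.36 and 3.501 FPKM in Acu 4, 6 and 28, 3.84, 4.11, 3.22 and 5.096 FPKM in AIA 5, 10, 31 and 38, and 1.18, 1.75 and 1.67 FPKM in Control 15, 16 and 17. AIA and Control did not overlap, and the rise of 1.02 (SE 0.28, adjusted p = 0.0462) was the smallest of the 8 called. Without Control 15 the value of Herc6 was 0.84, with an adjusted p of 0.286. Trim25 had 23.1, 24.2 and 16.2 FPKM in Acu 4, 6 and 28, 14.1, 13.6, 15.4 and 21.97 FPKM in AIA 5, 10, 31 and 38, and 16.7, 11.8 and 28.7 FPKM in Control 15, 16 and 17. Trim25, a ubiquitin ligase of the RIG-I pathway, had its AIA range within that of Control and the smallest log2 fold change of the 35, at 0.16 (SE 0.33, adjusted p = 0.786). Usp18, the protease that removes Isg15 and restrains the interferon receptor, had a value of 1.40 (adjusted p = 0.149). Dtx3l and Parp9, which form a complex of a ubiquitin ligase and an ADP-ribosyltransferase, had values of 1.01 and 0.94, and their annotated ends overlap by 682 bases on chromosome 16 on opposite strands. Of these 6 genes 2 were called.

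Of the last 4 genes, Ifi44 and Rtp4 were called. Ifi44 stood at 3.76, 10.9 and 16.9 FPKM in Acu 4, 6 and 28, 12.1, 28.5, 12.6 and 47.4 FPKM in AIA 5, 10, 31 and 38, and 2.21, 2.27 and 9.42 FPKM in Control 15, 16 and 17. The level of Rtp4 was 19.9, 17.5 and 30.1 FPKM in Acu 4, 6 and 28, 22.9, 29.5, 21.6 and 49.96 FPKM in AIA 5, 10, 31 and 38, and 7.85, 7.77 and 22.1 FPKM in Control 15, 16 and 17. Ifi44, an interferon-induced cytoplasmic protein, had every AIA library above every Control library, whereas for Rtp4, a chaperone of cell surface receptors, Control 17 lay within the AIA range. Ifi44 rose in AIA by 2.78 (SE 0.54, adjusted p = 0.0153) and Rtp4 by 1.77 (SE 0.41, adjusted p = 0.0265). Ifi35 had 18.3, 20.2 and 36.95 FPKM in Acu 4, 6 and 28, 32.6, 98.02, 29.6 and 48.7 FPKM in AIA 5, 10, 31 and 38, and 21.6, 28.7 and 18.4 FPKM in Control 15, 16 and 17. The AIA libraries of Ifi35, which binds other interferon-induced proteins, were all above Control, the closest pair being AIA 31 and Control 16, and its value of 0.86 (adjusted p = 0.305) was not called. Xaf1, a partner of an inhibitor of apoptosis, had a value of 1.31 (adjusted p = 0.0745). Rtp4 overlaps Masp1, which reached 163.5 FPKM, on the other strand, and no source used here says if the counting was stranded.

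The second comparison asks what acupuncture changed in mice that had the adjuvant. None of the 35 genes was called between Acu and AIA: limma gave 0 of 35 with all 10 libraries and 0 of 35 with 8, and 0% of all genes were called in either fit. At an unadjusted p under 0.05 the counts were again 0 and 0, where 4.70% and 2.99% of all genes passed. At the unadjusted p voom had 1 of the 35 lower with 10 libraries, where 692 of all 17010 genes passed in either direction. With 8 libraries it had 0, where 384 of 16067 passed. In no gene did the Acu and AIA libraries separate, where 11.1% and 17.1% of all genes separated in the 2 fits. The median log2 fold change was -0.26 with 10 libraries (0.08 for all genes) and -0.11 with 8 (0.06 for all genes). With FPKM scaled instead to the same sum in every library, which moved the median of all genes to 0.54 and 0.62, the medians turned positive, to 0.29 and 0.51, and stayed below those of all genes.

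In the fit of 8 libraries 22 genes had a negative and 13 a positive fold change between Acu and AIA. The largest negative ones were those of Ifit1 at -1.16 (SE 0.81), Ifitm3 at -0.92 (SE 0.59) and Isg15 at -0.85 (SE 0.64), and the largest positive one was that of Oasl1 at 0.82 (SE 0.73), all with an adjusted p of 0.984. Isg15 had 59.2 and 97.3 FPKM in Acu 6 and 28, against 71.7 and 73.2 FPKM in AIA 5 and 31 and 266 and 256 FPKM in AIA 10 and 38. The difference thus lay in the 2 high AIA libraries, and both Acu libraries fell near the 2 lower ones. The data do not set these groups close to each other with any precision: the 95% interval of the fold change reached a median of 1.19 to either side on the log2 scale. It contained 0 for all 35 genes, a log2 fold change of -1 for 25 of them and of 1 for 16. For Isg15 it ran from -2.31 to 0.62 and for Zbp1 from -1.95 to 1.26.

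**Figure D4:**
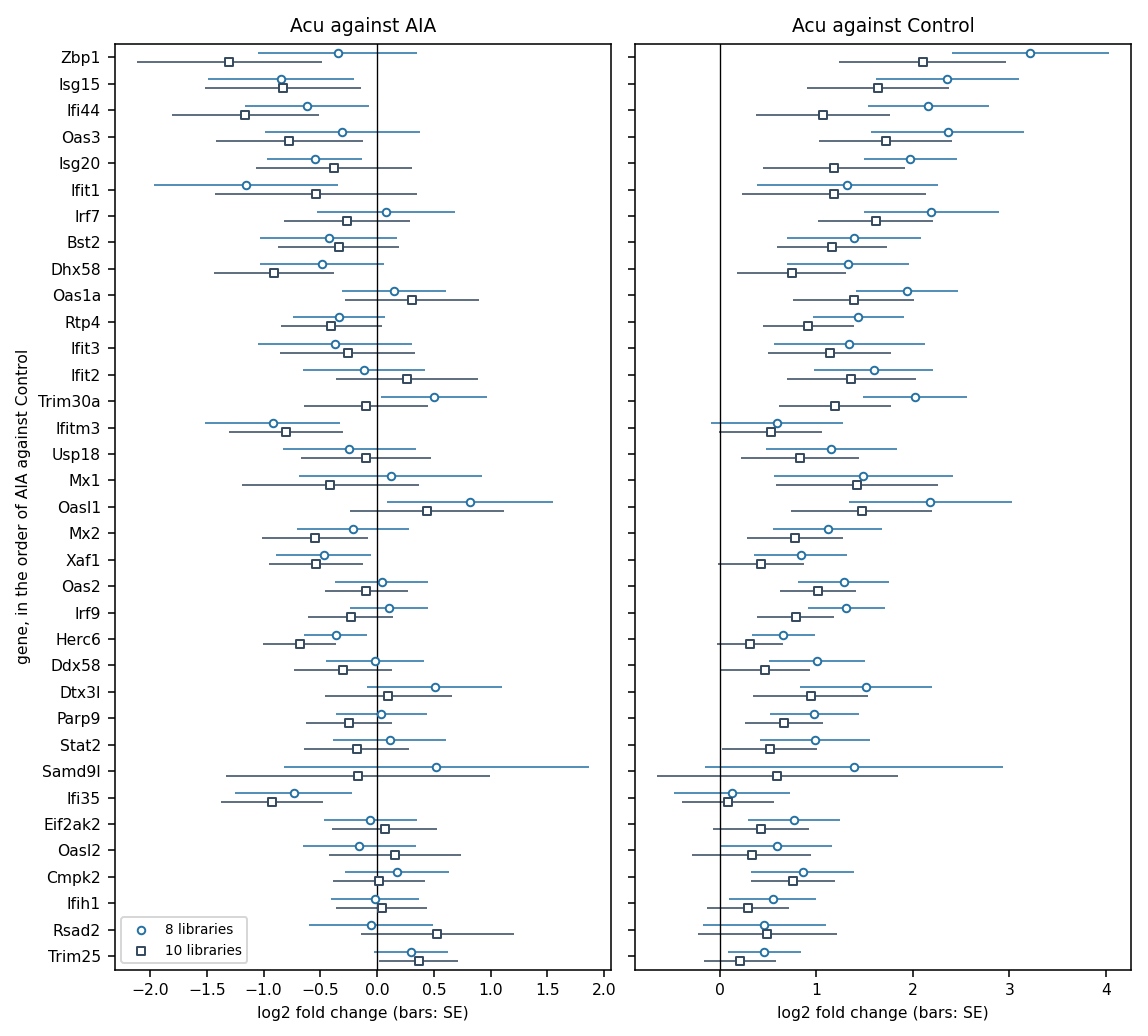
Log2 fold changes of the 35 genes on the log2(FPKM + 1) scale with SE bars, Acu over AIA in the left panel and Acu over Control in the right, from the fits of 8 (circles) and 10 libraries (squares), in the order of AIA over Control. Against AIA the values of the fit of 8 libraries lie between -1.16 and 0.82 around 0, and against Control all 35 are positive.

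Between Acu and Control, 0 of 35 genes were called with all 10 libraries, where 0% of all genes were called higher. At an unadjusted p under 0.05, 5 of 35 were higher, where 3.29% of all genes were. Voom gave 0 calls and 6 of 35 higher at the unadjusted p, where 521 of all 17010 genes were higher. In 6 of 35 (Irf7, Oas2, Oas3, Oasl1, Cmpk2 and Bst2) all Acu libraries were above all Control libraries, where 4.87% of all genes were. Without Acu 4 and Control 17 the count of calls was still 0 of 35, where 0.890% of all genes were called higher. In that fit 13 of 35 were higher at the unadjusted p, where 10% of all genes were. In 29 of 35 both Acu libraries were above both Control libraries, where 32.4% of all genes were. Voom on these 8 libraries gave 0 calls and 14 of 35 higher at the unadjusted p, where 1657 of all 16067 genes were higher. The median log2 fold change was 0.83 with 10 libraries and 1.32 with 8, against 0.02 and 0.06 for all genes. The smallest adjusted p were those of Isg20 (log2 fold change 1.97, SE 0.48, adjusted p = 0.0589), Zbp1 (3.22, SE 0.81, adjusted p = 0.0642) and Trim30a (2.03, SE 0.54, adjusted p = 0.0735). Acu and AIA are set against the same Control libraries here, so their values side by side, 2.36 and 3.21 for Isg15, 1.94 and 1.79 for Oas1a or 1.32 and 2.48 for Ifit1, share whatever those libraries hold.

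The interferons themselves were scarcely seen. Of 18 listed type I interferon genes, 15 (Ifnb1, Ifnz and all 13 listed interferon alpha genes) had 0 reads in all 10 libraries, which at these depths and gene lengths allows up to 0.101 to 0.472 FPKM (3 reads, counting error only). This bound does not cover reads shared among the related interferon alpha genes, which may not have been counted. Ifnab was at most 0.129 FPKM. Ifne, an interferon of the female reproductive tract, had 5.96 FPKM in Acu 4 and 14.3 FPKM in Control 17 and at most 0.0975 FPKM elsewhere, and Ifnk had 0.936 and 7.61 FPKM in those libraries and 0 elsewhere. Ifng stood at 0.0485, 0.838 and 1.73 FPKM in Acu 4, 6 and 28, 1.84, 1.499, 1.04 and 2.498 FPKM in AIA 5, 10, 31 and 38, and 0.188, 0.5497 and 0 FPKM in Control 15, 16 and 17. Ifng, which encodes interferon gamma, was higher in all AIA libraries than in all Control libraries, with a log2 fold change of 0.96 (adjusted p = 0.0725) in the fit of 8 libraries. The receptor genes Ifnar1 and Ifnar2 had 8.16 to 25.2 and 8.85 to 22.4 FPKM in AIA, against 13.9 to 20.3 and 10.4 to 26.3 FPKM in Control, with AIA 10 the lowest AIA library in both, and 0 of 6 interferon receptor genes were called in any comparison of either fit.

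Among the other genes of the pathway, tested in the same fits, 0 were called between AIA and Control with all 10 libraries. Without Control 17 and Acu 4, the signalling gene Irf1, a transcription factor that also answers to interferon gamma, rose in AIA by 1.39 (SE 0.38, adjusted p = 0.0473). Of 15 genes that sense infection or induce interferon, Tlr7, a receptor for single-stranded RNA, rose by 1.64 (SE 0.46, adjusted p = 0.0494). Without Control 15 neither was called, with values of 0.99 for Irf1 (adjusted p = 0.331) and 1.31 for Tlr7 (adjusted p = 0.350). Of 50 further type I interferon induced genes 46 were tested, 10 rose, Ifitm1 (3.78), Sp140 (2.58), Ifi203 (1.69) and Ifit1bl1 (2.48) first, and Ifi27 fell by 2.56. Ifi27 had 26.4 to 76.1 FPKM in AIA, against 422, 121 and 37.3 FPKM in Control 15, 16 and 17, the order of the adipocyte genes in those libraries, whose part in this value was not tested.

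Of 22 genes typical of interferon gamma 21 were tested, and 12 rose in AIA and 0 fell, as log2 fold changes with Iigp1 at 2.30 (SE 0.36), Igtp at 2.48 (SE 0.45), Cxcl9 at 2.40 (SE 0.44) and Cd274 at 1.58 (SE 0.29) first, at adjusted p of 0.00692 to 0.0129. The difference between this count and the 8 of 35 was not tested. Their mean log2(FPKM + 1) was 2.34, 4.19 and 4.31 in Acu 4, 6 and 28, 4.39, 4.17, 4.35 and 4.99 in AIA 5, 10, 31 and 38, and 2.60, 3.06 and 2.25 in Control 15, 16 and 17. Here Control 17 and Acu 4 were the lowest libraries, while for the 35 type I genes they lay close to Acu 6 and AIA 5. Without Control 15 as well, 1 of the 46 further type I genes (Ifitm1, 2.45, adjusted p = 0.0324) and 0 of the 21 interferon gamma genes were called. Between Acu and Control only Ifitm1 was called among these lists, in the fit of 8 libraries (log2 fold change 3.50, adjusted p = 0.0381), and it was not called without Control 15 (2.17, adjusted p = 0.102). Between Acu and AIA 0 were called in either fit.

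Markers of cell types differed among the groups and also among the libraries of a group. Over 6 genes of leukocytes the mean log2(FPKM + 1) was 3.87, 7.56 and 7.48 in Acu 4, 6 and 28, 7.29 to 7.81 in AIA, and 3.48, 6.30 and 4.52 in Control 15, 16 and 17, with none of the 6 genes at 0 in any library. Taking the leukocyte mean away from the mean of the 35 genes left -0.09, -3.67 and -3.00 in Acu 4, 6 and 28, -3.40, -3.54, -3.44 and -2.56 in AIA 5, 10, 31 and 38, and -0.76, -3.35 and -0.77 in Control 15, 16 and 17. In the 7 libraries with lymphocyte transcripts, Control 16 thus fell within the AIA range on this relative measure, and AIA 38 and Acu 28 were the highest. Markers of macrophages and monocytes averaged 4.88 to 5.78 in Acu, 5.36 to 6.05 in AIA and 3.79 to 4.68 in Control, and 4 of 7 were called higher in AIA than in Control in the fit of 8 libraries. Plasma cell markers averaged 4.31 to 6.83 in Acu, 6.25 to 6.72 in AIA and 2.38 to 3.07 in Control, with 4 of 6 called higher in AIA. Neutrophil markers averaged 2.09 to 3.27 in Acu, 2.78 to 4.91 in AIA and 0.77 to 2.12 in Control, with 3 of 6 called higher in AIA. AIA 38, the highest library for most of the 35 genes, was the highest of all for neutrophil markers at 4.91, but AIA 5, which had the lowest mean of the 35 genes in AIA, came next at 4.54. All of these calls include Control 15, and without it Control is Control 16 alone. Median log2 fold changes, AIA over Control, were then 1.25 for leukocytes and 1.55 for macrophages and monocytes, against 2.65 and 1.27 with Control 15. Those of plasma cells and neutrophils were 3.11 and 2.32, against 2.96 and 2.32.

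Some lists of other tissue ran the opposite way. Those of adipocytes had 5 of 5 tested called lower in AIA than in Control in the fit of 8 libraries, and those of endothelium, at 2.46 to 4.16 in Acu, 2.04 to 2.69 in AIA and 3.79 to 5.28 in Control, had 5 of 6. Skeletal muscle markers, 1 of 6 called, had a median of -4.70 as log2 fold change and averaged 1.49 to 7.57 in Acu, 1.09, 4.11, 6.82 and 4.68 in AIA 5, 10, 31 and 38, and 7.65, 9.53 and 1.05 in Control 15, 16 and 17. Without Control 15 the muscle median was -5.60. That of adipocytes was then -5.70, against -6.72 with Control 15. That of endothelium was -1.66 over the 5 genes then tested, against -1.88 over 6. Markers of plasmacytoid dendritic cells were mixed. Their median log2 fold change, AIA over Control in the fit of 8 libraries, was 1.15, with 0 of 6 called higher and 1 called lower. Without Control 15 the median of these markers was 0.08. They averaged 1.55 to 3.69 in Acu, 2.69 to 3.58 in AIA and 1.23, 3.73 and 0.48 in Control 15, 16 and 17. In this mean Control 16 was above every AIA library, the closest being AIA 31 at 3.58. Control 16 was also the library with the highest mean of skeletal muscle markers, and the part of muscle transcripts in its plasmacytoid mean was not tested. The part of these cell types in the levels of the 35 genes was not tested.

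**Figure D5:**
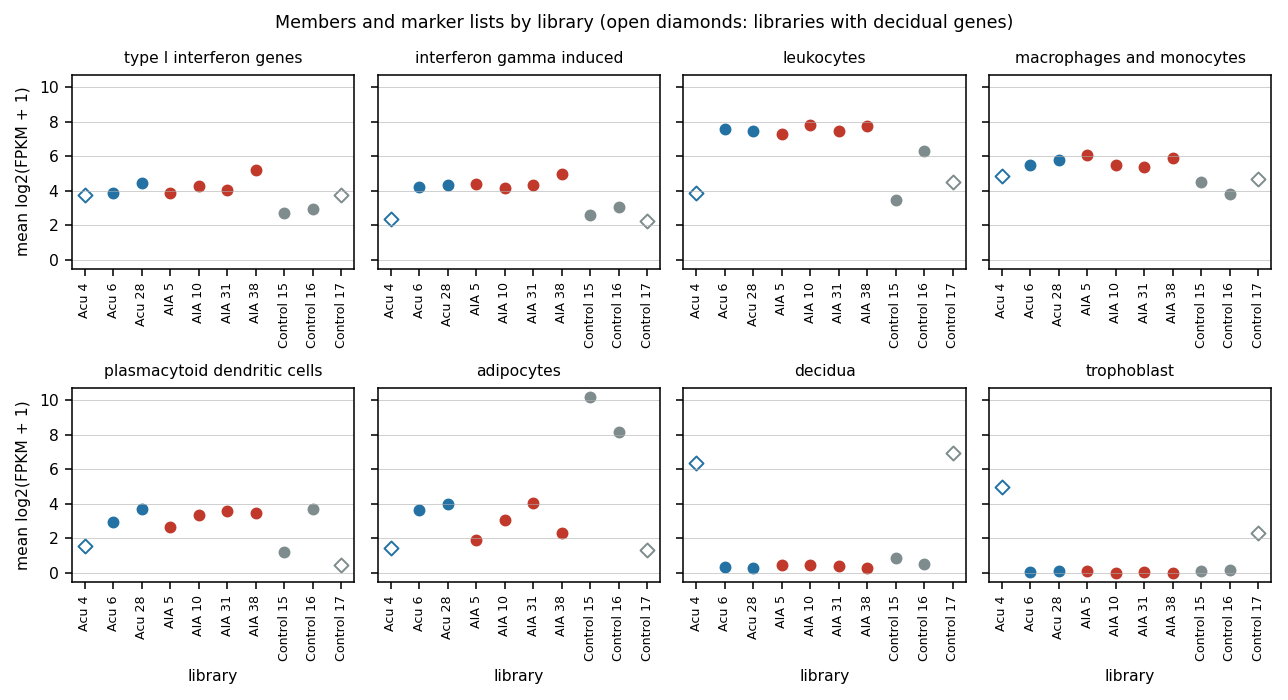
Mean log2(FPKM + 1) of the 35 genes, of interferon gamma induced genes and of 6 marker lists, 1 point for each library, with Acu in blue, AIA in red and Control in grey, and open diamonds for the libraries with decidual genes. The 35 genes lie at 3.89 to 5.18 in AIA and at 2.72 and 2.95 in Control 15 and 16, and leukocyte markers lie at 7.29 to 7.81 in AIA and at 3.48 and 6.30 in the same Control libraries.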

How the data were processed

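The authors deposited FPKM for 54987 genes in 10 libraries, made from total RNA with an NEB kit, per the labels' protocols. Per the submitters' processing notes, which give no roles, featureCounts 1.5.0-p3, HISAT2 2.0.5, DESeq2 1.16.1, StringTie 1.3.3b and the build mm10 are named. The strand setting is not known from these sources. FPKM times gene length was a whole multiple of 1 step for 100% of values above 0, to within 0.01 of that step, so whole reads could be recovered. A median-of-ratios factor of 0.996 in every library shows that the deposited FPKM had been scaled in that way.

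The 35 genes, the gene lists and the decision to fit with and without Control 17 and Acu 4 were made with earlier results of these data known. limma 3.58.1 in R 4.3.3, with a mean-variance trend, was fitted on log2(FPKM + 1) over all genes with 0.5 FPKM or more in 3 or more libraries, all 3 groups in 1 fit, with Benjamini-Hochberg adjustment over all genes tested and calls at an adjusted p under 0.05. Adding 1 understates the change of genes with low FPKM. SE is limma's moderated standard error. The alternatives were a pseudocount of 0.1, no filter, FPKM scaled to a sum of 1000000 in each library, array weights, voom on the recovered reads, and leaving out libraries. The fit was run on simulated counts with 1 setting of spread for all genes and libraries and without the tissue differences of these libraries. That run therefore does not show how the fit behaves on them. Values are given in every library for genes called in any fit and for the 2 most abundant genes of each role, and for others by range, with up to 2 per role by fold change. Of the pathway lists, up to 4 genes called are named by smallest p, and 1 signalling gene is not reported here. Promoter windows came from RefSeq on GRCm38.p6, and in 27 of 32 windows the bases after the start lay in a transcript of the same gene. The rest used matplotlib 3.10.9, scipy 1.17.1, pandas 2.3.3, numpy 2.4.6 and Python 3.11.15.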

Additional observations from a re-analysis of the deposited data

Results flagged for a closer look

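Among the 4 AIA libraries, 57 groups of 4 values were examined for 1 library far from the other 3, by Dixon's ratio of the gap to the nearest library over the whole range. The values were taken as log2(FPKM + 1), so the ratios are not those of the FPKM printed below. The ratio passed its 95% critical value in 3 of them, and chance passes about 1 in 20 such groups.

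Ifih1, the sensor MDA5, had 8.45 FPKM in AIA 38, against 3.06 to 3.56 FPKM in the other 3 AIA libraries (ratio 0.861). Oas1a had 28.2 FPKM in AIA 38, against 10.004 to 11.9 FPKM (ratio 0.834). Samd9l had 4.03 FPKM in AIA 10, against 104 to 120.3 FPKM (ratio 0.954). AIA 10 is also the library with 15116 genes above 0 and 231 FPKM of mt-Co1, and whether these values and that of Samd9l have 1 source was not tested.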

How the results depend on the processing

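No paired analysis was possible because the groups share no replicate number. In this paragraph the percentage after a count is the share of all genes tested that were called higher under the same setting. With all 10 libraries, the 0 of 35 genes called between AIA and Control became 6 with array weights (8.22%) and 8 without Control 17 and Acu 4 (4.28%), and 0 to 4 when 1 library was left out (4 without Acu 4, 4.66%, and 4 without Control 17, 1.24%). Between Acu and Control the 0 became 3 with array weights (4.87%). Without Control 17 and Acu 4, the 8 genes between AIA and Control became 5 with no filter on low values (1.49%) and 2 with array weights (3.40%), and 0 to 13 when 1 more library was left out (0 without Control 15, 0.479%, 4 without AIA 38, 1.60%, and 13 without AIA 10, 10.1%). Between Acu and Control the 0 became 2 with array weights (1.49%), and 0 to 4 on leaving out 1 library. These were 4 of 35 without AIA 10 (5.59%) and 2 of 35 without Control 16 (5.24%), the latter near the share of all genes. The cause of these shifts was not tested.

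None of the 35 genes was called between Acu and AIA under any setting run, although of all genes array weights called 63 higher and 35 lower with 10 libraries and 14 and 3 with 8, and the lack of a filter called 70 higher with 8. The median over the 35 genes in this comparison, negative as reported, was 0.29 (10 libraries) and 0.51 (8 libraries) under scaling to a common sum and 0.03 with array weights on 8 libraries. On leaving out 1 library it ranged over -0.46 to 0.01 with 10 libraries and -0.58 to 0.15 with 8. Over all settings run, the medians against Control stayed positive, at 0.82 to 1.38 (10 libraries) and 1.10 to 1.59 (8 libraries) for AIA and at 0.65 to 1.32 and 0.90 to 1.72 for Acu. On leaving out 1 library they ran over 0.92 to 1.38 and 1.10 to 1.59 for AIA and over 0.65 to 1.06 and 0.90 to 1.60 for Acu. Over all genes between AIA and Control without Control 17 and Acu 4, 688 rose and 1478 fell, against 454 and 1896 under scaling to a common sum, which put the median of all genes at -0.26 and that of the 35 at 1.20. With 2 to 4 libraries a group and 95% intervals of about 1.19 to either side, small changes are out of reach.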
